A study of Mus musculus with 4 samples.

Results

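Binding of the transcription factor SCL was examined around 10 genes that encode cardiac transcription factors: Gata4, Gata6, Nkx2-5, Tbx5, Tbx20, Hand1, Hand2, Mef2c, Myocd and Isl1. A peak was given to 1 of these genes when the protein-coding transcription start site nearest to its summit belonged to that gene. By this rule 31 of the 12885 SCL peaks belonged to the 10 genes, and 8 of the 10 genes held them. Hand1 and Isl1 held none. The deposited list is longer than the set of bound loci that the study describes, and every share over all peaks refers to the deposited list.

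The study asked where SCL (gene symbol Tal1) binds when mesoderm takes a blood fate at the expense of other fates such as the cardiac one. SCL-bound chromatin was immunoprecipitated and sequenced (ChIP-seq) from FLK1+ mesoderm, cells that carry the receptor FLK1 and were isolated with magnetic beads from embryoid bodies, the aggregates formed by differentiating mouse embryonic stem (ES) cells. There were 2 libraries made with an in-house rabbit antiserum to SCL and 2 input libraries of unenriched chromatin, all from day 3.5 and labelled with the strain C57Bl/6 X Sv129. The ES cells were wild-type J1 cells, a single line, and the 2 ChIP libraries came from independent differentiations. The deposited peak list was called on the merged libraries, so the values carry no error between replicates and the libraries cannot be compared. The list holds no expression values, so the identity of the FLK1+ cells was not checked against marker genes here.

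SCL is a basic helix-loop-helix protein that pairs with E proteins to bind E-boxes and works in blood progenitors with GATA factors through the bridging proteins LMO2 and LDB1. The heart is specified from mesoderm by a small set of factors that act together and on one another. GATA4 and GATA6 are zinc-finger proteins, NKX2-5 and ISL1 homeodomain proteins, TBX5 and TBX20 T-box proteins, HAND1 and HAND2 basic helix-loop-helix proteins, MEF2C a MADS-box protein, and myocardin, the product of Myocd, a coactivator of serum response factor.

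The group had been proposed as factors that SCL represses, and this name was compared with the gene lists of the study. Those lists hold only genes that the study counted both as bound by SCL, from these same ChIP libraries, and as changed in expression without SCL, so a gene in neither list may lack either. They placed Gata4, Gata6 and Isl1 among the genes repressed by SCL, Mef2c among the activated genes, and the remaining factors in neither. Isl1 is thus counted as bound there, although it held no peak by the rule used here. The rules can differ, as the study gave the SCL peak at Tbx6 to the closest gene with changed expression. Which peak it gave to Isl1 was not examined here. The counts that follow use the rule of the nearest protein-coding start. The 3 genes on the repressed list held 10 of the 31 peaks, Mef2c held 6 and the 6 genes on neither list held 15. The 10 genes are therefore called here by their cardiac role alone, and expression was not analysed here.

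The sequence under the strongest peak of a gene shows what lay at its summit. The windows printed here are the summit and 50 bp on each side, on the plus strand of the mm9 genome, for the strongest peak by fold of each of 7 of the 8 genes with a peak. That of Gata6 is not printed here. Capitals mark GATA motifs (GATA with A or T before it and A or G after it, for example AGATAA, which reads TTATCT when it lies on the other strand), E-boxes (CANNTG) and the composite of CTG and GATA.
Gata4, chr14:63954066-63954166: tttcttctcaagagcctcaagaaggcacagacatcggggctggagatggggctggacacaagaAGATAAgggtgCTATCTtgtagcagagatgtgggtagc
Nkx2-5, chr17:26987826-26987926: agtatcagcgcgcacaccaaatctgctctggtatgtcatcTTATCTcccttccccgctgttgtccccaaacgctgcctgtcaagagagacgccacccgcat
Tbx5, chr5:120325587-120325687: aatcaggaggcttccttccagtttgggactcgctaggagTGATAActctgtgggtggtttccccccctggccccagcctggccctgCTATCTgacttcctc
Tbx20, chr9:24652898-24652998: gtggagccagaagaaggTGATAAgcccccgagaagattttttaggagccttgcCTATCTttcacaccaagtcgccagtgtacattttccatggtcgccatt
Hand2, chr8:59589725-59589825: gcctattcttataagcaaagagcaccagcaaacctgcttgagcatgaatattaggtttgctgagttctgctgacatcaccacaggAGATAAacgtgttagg
Mef2c, chr13:83521749-83521849: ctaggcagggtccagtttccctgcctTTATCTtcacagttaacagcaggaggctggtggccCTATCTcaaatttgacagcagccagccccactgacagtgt
Myocd, chr11:65109331-65109431: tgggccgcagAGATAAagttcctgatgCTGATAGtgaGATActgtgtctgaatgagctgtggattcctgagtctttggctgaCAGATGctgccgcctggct

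Each of the 7 windows held a GATA motif, and 5 of them held 2. The window of Nkx2-5 and that of Hand2 held 1 each. An E-box and the composite were found only in the window of Myocd among these 7, where the CTG of the composite runs into the GATA motif TGATAG.

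The composite, CTG followed by GATA after 7 to 9 bp on the same strand, is the spacing at which SCL and a GATA factor can occupy adjoining DNA in blood cells. It was found near 6 of the 31 summits, and is given on its own strand with 4 bp on either side, CTG and GATA in capitals. The GATA of the composite may have any base on either side. In both Tbx5 sites and in the Myocd site at 25.9 kb it does not match the GATA motif defined above. Only the sites of Gata4 and that of Myocd at 25.9 kb lie in peaks with a fold above 20.
Gata4, chr14:63850154-63850176, minus strand: aagtCTGtcatttcaGATAaaaa
Tbx5, chr5:120244425-120244447, plus strand: atgtCTGggttctctGATAtctc
Tbx5, chr5:120414954-120414975, plus strand: atgcCTGgagcctgGATAagaa
Mef2c, chr13:83662355-83662376, minus strand: tcccCTGaccgataGATAgcgg
Myocd, chr11:65109354-65109375, plus strand: gatgCTGatagtgaGATActgt
Myocd, chr11:65174179-65174202, minus strand: gtcgCTGgaaactgcaGATAatgt

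A peak was found at 8 of the 10 genes, or 80% (Wilson 95% confidence interval 49.0 to 94.3%), where 29.1% of the 22225 protein-coding genes had at least 1. Tbx5 had 7 peaks, Mef2c 6, Gata4 and Gata6 5 each, Hand2 3, Tbx20 and Myocd 2 each and Nkx2-5 1. At least 5 peaks were held by 4 of the 10 genes (40%, 16.8 to 68.7%) and by 2.12% of all protein-coding genes. As many as the 7 peaks of Tbx5 were held by 0.814% of genes. Shares over all genes do not allow for how far a gene lies from its neighbours, which is taken up below.

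The cardiac genes are set far from other genes, so more of the genome is nearest to them. The stretch nearer to the start sites of a gene than to those of any other protein-coding gene had a median of 264 kb for the 10 genes and of 45.7 kb for all genes, and 9 of the 10 genes were above the latter. Over their stretches together the 10 genes held 0.886 peaks per 100 kb, and all genes 0.485. The 10 genes thus had more peaks per gene, 3.1 against 0.58 on average, as well as longer stretches. The part of the length of the stretch in the number was not tested.

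Genes with a stretch of similar length gave a closer comparison. Gata4 (141 kb, 5 peaks) and Tbx20 (197 kb, 2 peaks) belong to the class of 100 to 200 kb, in which genes had 0.949 peaks on average. Tbx5 (218 kb, 7 peaks), Myocd (311 kb, 2 peaks) and Isl1 (370 kb, no peak) belong to the class of 200 to 400 kb, with an average of 1.68. Gata6 (497 kb, 5 peaks), Hand2 (452 kb, 3 peaks) and Mef2c (1230 kb, 6 peaks) have over 400 kb, where the average was 2.17. Gata4 and Tbx5 stood furthest above the average of their classes. The last class has no upper limit, and only 0.963% of genes have a stretch as long as that of Mef2c, which held 0.488 peaks per 100 kb, close to the 0.485 of all genes. At least 1 peak was held by 46.9% of genes in the class of 100 to 200 kb. In the class of 200 to 400 kb it was 63.3%, and over 400 kb 70.1%. All members of these classes but Isl1 had a peak. Shares with at least 5 peaks were not worked out by class. Nkx2-5 has 63.2 kb and 1 peak, where genes of 50 to 100 kb averaged 0.49 and 31.8% had a peak. Hand1 has only 18.4 kb, in a class where 8.97% of genes had a peak.

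**Figure D1:**
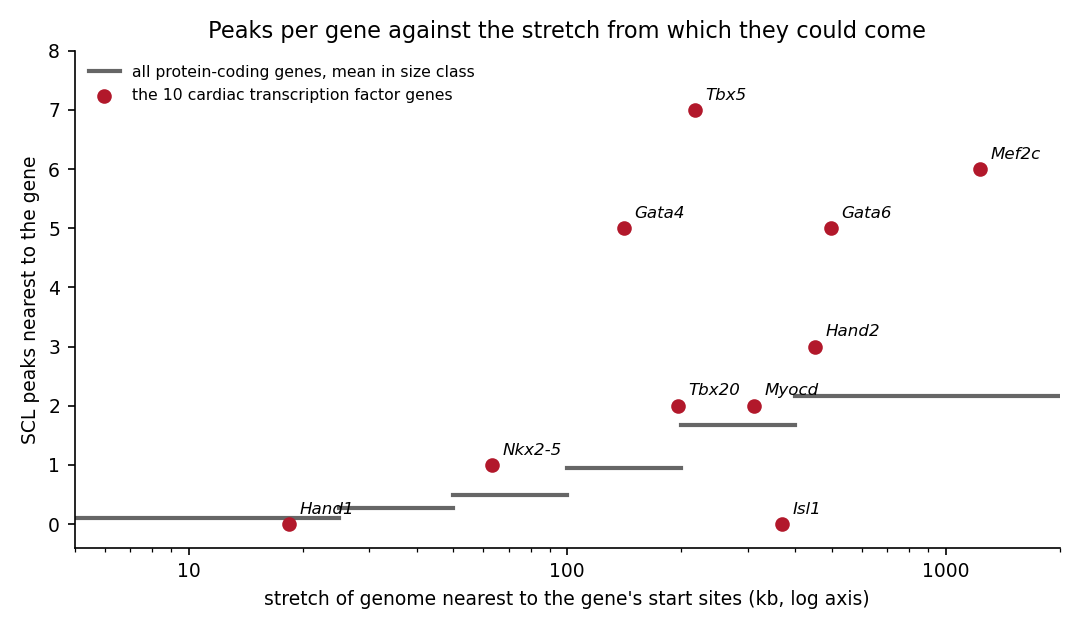
Number of SCL peaks nearest to each of the 10 cardiac transcription factor genes (points) against the stretch of genome nearest to its start sites (kb, log axis), with grey lines for the mean over all protein-coding genes in 6 classes of length. Tbx5 with 7 peaks and Gata4 with 5 lie well above the means of their classes, 1.68 and 0.949, and Hand1 and Isl1 lie at 0.

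The strength of a peak is given by its fold, which is how many times more ChIP fragments stacked at the summit than the local background held. The fragments and the background were worked out from the fold and p that the authors deposited for each peak. The 31 peaks had a median fold of 9.32 (95% confidence interval of the median 7.96 to 12.4), and all 12885 peaks had one of 11.1 (11.05 to 11.4). A fold of at least 20 was reached by 9 of the 31 peaks (29.0%, 16.1 to 46.6%), and by 25.1% of all peaks. The share of strong peaks was thus near that of the whole list.

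The strongest peak of each gene gave higher values. It ranged from 12.4 in Mef2c to 83.4 in Gata4, with a median of 36.9. Over all 6458 genes with a peak the median of the strongest peak was 14.4, a value that 7 of the 8 genes exceeded and Mef2c did not. The 8 genes had a median of 4 peaks, where all genes with a peak had 1, and the part of this number in the strongest fold was not tested. Among genes of 100 to 200 kb, 200 to 400 kb and over 400 kb, the classes that hold 7 of the 8 genes, the median of the strongest peak was 15.4, 17.8 and 19.2.

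**Figure D2:**
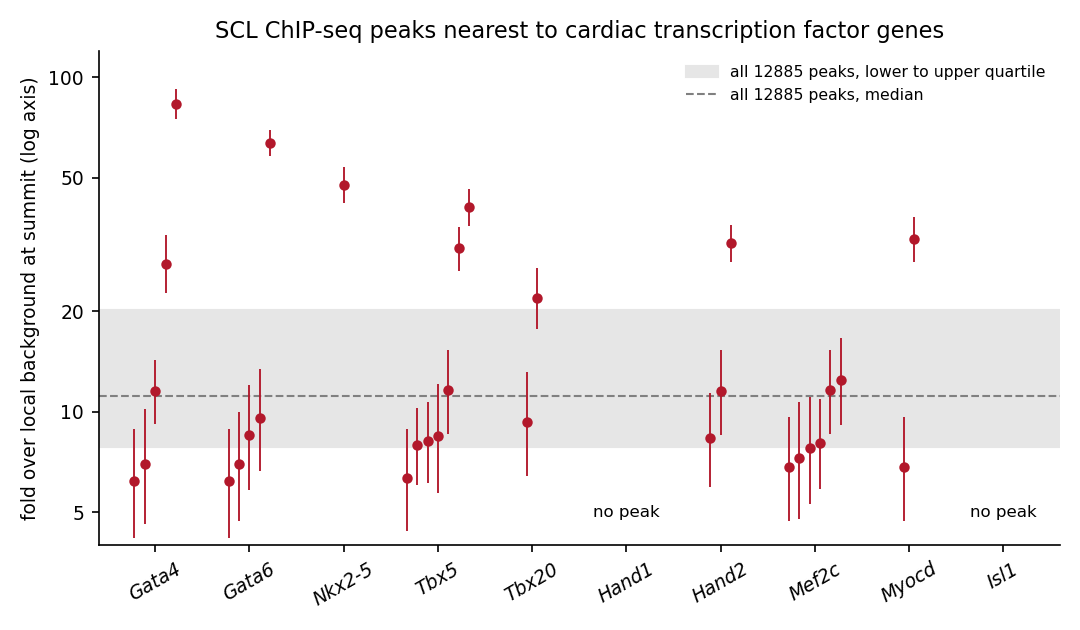
Fold over local background at the summit (log axis) of each of the 31 SCL peaks, by gene, with bars for the 95% Poisson interval of the fragments at the summit. The grey band spans the quartiles of all 12885 peaks, 7.84 to 20.1, and the dashed line their median of 11.1. In Gata4, Gata6, Nkx2-5, Tbx5, Tbx20, Hand2 and Myocd at least 1 peak lies above the band, and all 6 peaks of Mef2c lie below 20.

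GATA4 is one of the earliest factors of the cardiac programme. Gata4 (ENSMUSG00000021944.8, chromosome 14, minus strand) held the strongest of the 31 peaks, at chr14:63953911-63954620, with 372 fragments over a background of 3.47 and a fold of 83.4 (Poisson 95% interval 75.2 to 92.3). Only 2.63% of all peaks had a higher fold. It lies between genes, 63.6 kb upstream of the outermost annotated start site of Gata4 and 90.0 kb upstream of the group of start sites further into the gene.

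The other peaks of Gata4 were weaker. The second, at chr14:63849854-63850331, lies in an intron 13.9 kb downstream of that inner group. It had 99 fragments over a background of 2.60 and a fold of 27.7 (22.6 to 33.7). A further peak, 3.47 kb from the strongest, had a fold of 11.5, and those 12.2 kb upstream and 5.72 kb downstream of a start site had folds of 6.21 and 7.0. The strongest peak of Gata4 does not overlap any of the other 4 in its counting interval.

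GATA6 shares many cardiac targets with GATA4 and also acts in endoderm. Gata6 (ENSMUSG00000005836.8, chromosome 18, plus strand) had its strongest peak in its own intron, 25.7 kb downstream of the start, at chr18:11077977-11078431. This peak had the most fragments of the 31, 496 over a background of 6.81, and a fold of 63.6 (58.2 to 69.5). The other 4 peaks had folds of 6.21, 9.61 and 8.51 at 45.9, 43.0 and 12.1 kb upstream and of 7.0 at 77.3 kb downstream, all far below the intronic one.

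The assignment to Gata6 depends on which genes are counted. All 5 summits were slightly nearer to the start of the lincRNA gene 1010001N08Rik, at 25.6 kb against 25.7 kb for the intronic peak, so with lincRNA and processed-transcript genes included Gata6 had 0 peaks. Both peaks of Myocd were likewise nearer to the processed transcript Gm12295, at 8.05 and 5.12 kb, and 1 peak of Hand2 was nearer to the lincRNA 5033428I22Rik, at 3.47 kb.

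NKX2-5 is a homeodomain factor that marks cardiac progenitors. Nkx2-5 (ENSMUSG00000015579.4, chromosome 17, minus strand) had 1 peak, 9.37 kb upstream of its start at chr17:26987588-26988186. It had 253 fragments over a background of 4.33 and a fold of 47.7 (42.0 to 53.9), which 7.85% of all peaks exceeded. The next nearest summit to the Nkx2-5 start lay 196 kb away and belonged to Ergic1, so this was an isolated peak.

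TBX5 drives formation of the left ventricle and atria and works with GATA4 and NKX2-5. Tbx5 (ENSMUSG00000018263.8, chromosome 5, plus strand) had its strongest peak in an intron 41.0 kb downstream of the start, at chr5:120324870-120326007, with 244 fragments over 4.99 and a fold of 40.9 (36.0 to 46.4). A second strong peak lay 63.5 kb upstream, at chr5:120220641-120221380, with 175 fragments over 4.72 and a fold of 30.8 (26.4 to 35.7). The other 5 peaks had folds of 6.36 to 11.6.

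The peaks of Tbx5 lie on both sides of its start, 3 upstream at 40.3 to 68.0 kb and 4 downstream at 41.0 to 138.6 kb. The nearest downstream peak is the intronic one and lies inside the gene, and the others lie outside it. On the upstream side lies Tbx3, which encodes a related T-box factor of the cardiac conduction system and itself had 11 peaks. The outermost downstream peak of Tbx5, with a fold of 6.36, was the one closest to changing genes, 138.6 kb from Tbx5 and 143.2 kb from Rbm19.

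TBX20 is needed for growth of the heart chambers. Tbx20 (ENSMUSG00000031965.7, chromosome 9, minus strand) had 2 peaks, both upstream and outside genes. The stronger, 74.2 kb away at chr9:24652635-24653091, had 90 fragments over 3.15 and a fold of 21.9 (17.7 to 26.9). The weaker, at 44.3 kb, had 31 fragments and a fold of 9.32 (6.43 to 13.1), so the intervals of the 2 peaks do not overlap.

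HAND2 acts in the right ventricle, and HAND1 in the left. Hand2 (ENSMUSG00000038193.3, chromosome 8, plus strand) had its strongest peak 210.0 kb upstream, at chr8:59589524-59590051, with 248 fragments over 6.81 and a fold of 31.9 (28.0 to 36.1). A peak 7.66 kb downstream of the start had a fold of 11.5 (8.54 to 15.3), and another 307 kb upstream, the most distant of the 31, had one of 8.35 (5.97 to 11.4). The strongest peak of Hand2 was thus not the nearest one to it, as was also the case for Gata4, Gata6, Tbx5, Tbx20 and Mef2c.

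Hand1 (ENSMUSG00000037335.7, chromosome 11, minus strand) held no peak because the summits on its upstream side were nearer to another protein-coding gene model. Within 100 kb of a Hand1 start there were 5 peaks, 32.0 to 83.4 kb away, all of them assigned to Gm11003. The 2 nearest, at chr11:57677886-57678875 and chr11:57679916-57680500, had 145 and 178 fragments and folds of 33.4 (28.2 to 39.2) and 41.6 (35.8 to 48.2). They lay 32.0 and 33.9 kb from Hand1 and 27.1 and 28.9 kb from Gm11003.

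MEF2C acts in heart, muscle and endothelium. Mef2c (ENSMUSG00000005583.8, chromosome 13, plus strand) had 6 peaks, and its strongest, 121 kb upstream at chr13:83521697-83521981, had 44 fragments over 2.62 and a fold of 12.4 (9.11 to 16.6). The other 5 peaks had folds of 6.86 to 11.6, and the intervals of all 6 overlap, so none stood out. Of the 6, 4 lay in introns of Mef2c, among them the member peak nearest to any start site, 1.61 kb upstream of the inner start of Mef2c and 19.3 kb downstream of the outer one.

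Myocardin drives smooth and cardiac muscle genes. Myocd (ENSMUSG00000020542.11, chromosome 11, minus strand) had 2 peaks upstream, in an intron of Gm12295. The stronger, 25.9 kb away at chr11:65109007-65110230, had 167 fragments over 4.11 and a fold of 32.9 (28.1 to 38.2), and at 1224 bp it was the widest of the 31. The weaker, 90.7 kb away, had a fold of 6.86 (4.73 to 9.64).

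ISL1 marks progenitors of the second heart field, which add the right ventricle and outflow tract. Isl1 (ENSMUSG00000042258.5, chromosome 13, minus strand) held no peak, and the nearest summit lay 108 kb away. That peak had 24 fragments, which equals the fewest of any peak in the list, and a fold of 7.28. It was assigned to Gm6404, and the next summit was 550 kb from Isl1.

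The member peaks were distant from start sites. No summit lay within 1 kb of a start (0 of 31, with a Wilson upper limit of 11%), where 7.59% of all peaks did. The median distance was 62.4 kb (40.3 to 68.0 kb), and over all peaks it was 24.1 kb. More than 40 kb from the nearest start lay 22 of the 31 peaks, or 71.0%, and 37.8% of all peaks. The members' long stretches without other genes move with this distance, and their part in it was not tested.

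Of the 31 summits, 21 lay between genes (67.7%, 50.1 to 81.4%), 8 in an intron of the gene itself (25.8%, 13.7 to 43.2%), 2 in an intron of another gene and 0 in an exon. Over all peaks these shares were 51.1%, 36.2%, 8.43% and 4.22%, and the intervals of the members hold each of them. Upstream of the start lay 19, or 61.3%, and over all peaks 48.9% were upstream. Another summit lay within 12.5 kb for 10 of the 31 peaks (32.3%, 18.6 to 49.9%), a share near the 34.5% of all peaks. These 10 peaks form 5 pairs, of which 2 were in Tbx5 and 1 each in Gata4, Gata6 and Mef2c.

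**Figure D3:**
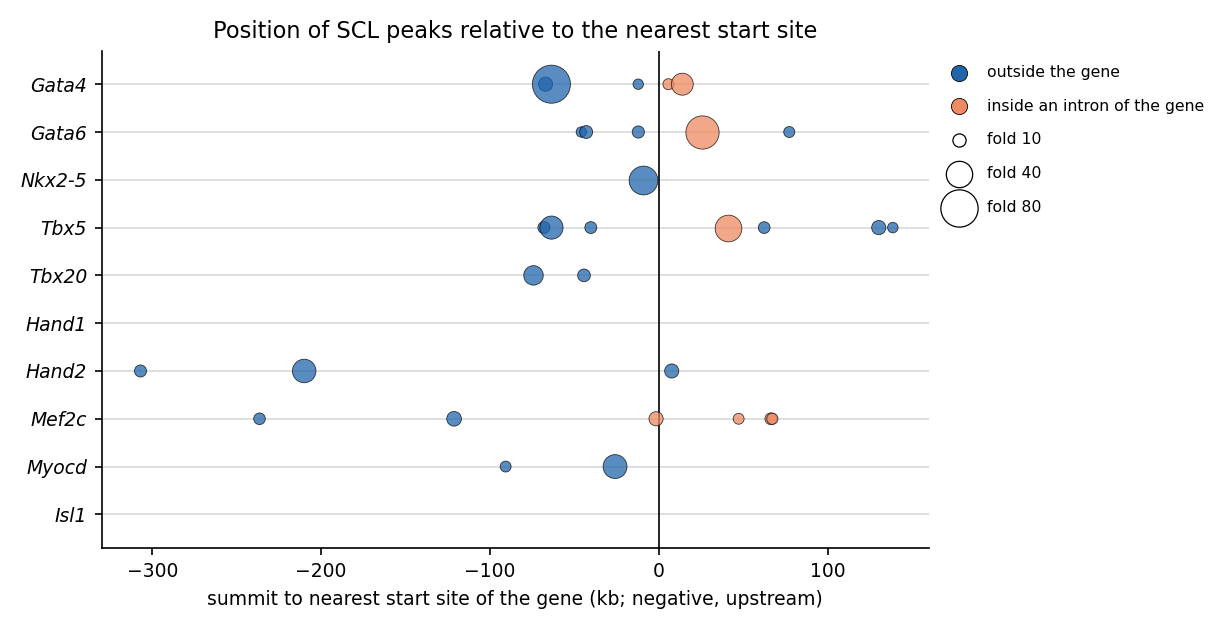
Distance in kb from the nearest start site of the gene to each of the 31 summits, negative upstream, with the area of a circle proportional to the fold. The summits spread from 307 kb upstream in Hand2 to 138.6 kb downstream in Tbx5, 8 of them (orange) in introns of the gene, and Hand1 and Isl1 have none.

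A GATA motif lay within 50 bp of 24 of the 31 summits (77.4%, 60.2 to 88.6%), and of 73.2% of all summits. In windows 1 kb from each summit the share was 17.8%. The strongest peak of each of the 8 genes had one, as had 76.5% of the strongest peaks of all genes. More than 1 GATA motif was found near 13 of the 31 summits (41.9%, 26.4 to 59.2%), as can be seen in 5 of the windows printed above, and near 22.0% of all summits (21.3 to 22.7%).

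An E-box lay near 13 of the 31 summits (41.9%, 26.4 to 59.2%) and near 52.6% of all summits, and 42.4% of the windows 1 kb away had one. The share depended on the window, with 19.4% of the members and 33.0% of all within 25 bp, and 77.4% (60.2 to 88.6%) and 90.1% in whole peaks. The members were below all peaks in each of these windows. The median width was 363 bp for the member peaks and 397 bp for all peaks, and its part in the whole-peak shares was not tested. The palindromic E-box CAGCTG, which is counted among the E-boxes, was near 4 of the 31, 1 each in Gata4, Gata6, Tbx5 and Mef2c (12.9%, 5.13 to 28.9%), and near 14.1% of all summits. Of the strongest peaks of the 8 genes 2 had an E-box, those of Gata6 and Myocd (25%, 7.15 to 59.1%), and 53.0% of the strongest peaks of all genes had one.

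The composite of CTG and GATA, which may share its GATA with a GATA motif, was near 6 of the 31 summits (19.4%, 9.19 to 36.3%) and near 32.9% of all. In windows 1 kb away the share was 3.07%. How the members compare with all peaks depends on the window searched. Within 25 bp of the summit the shares were 19.4% (9.19 to 36.3%) and 19.0%, and within 100 bp 22.6% (11.4 to 39.8%) and 41.2%. In whole peaks they were 29.0% (16.1 to 46.6%) and 47.5%. The members were thus near all peaks within 25 bp and below them within 50 bp and in the wider windows. These intervals treat the 31 peaks as independent, though they come from 8 genes, and the difference was not tested. The 6 sites within 50 bp lay in Gata4, Tbx5, Mef2c and Myocd. None of the GATA motif, the E-box and the composite was near 4 of the 31 summits (12.9%, 5.13 to 28.9%), a share near the 10.3% of all summits.

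Short motifs of the cardiac factors themselves were also counted. The core AAGTG, which NKX2-5 recognises, was near 7 of the 31 summits (22.6%), and 21.5% of all summits. The T-box core AGGTGT and the MEF2 site were near 0 of the 31, and near 5.69% and 0.155% of all summits, so at this number of peaks neither share can be told apart from that of all summits. The core AGGAA of ETS factors was near 18 of the 31 (58.1%, 40.8 to 73.6%) and near 51.9% of all.

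**Figure D4:**
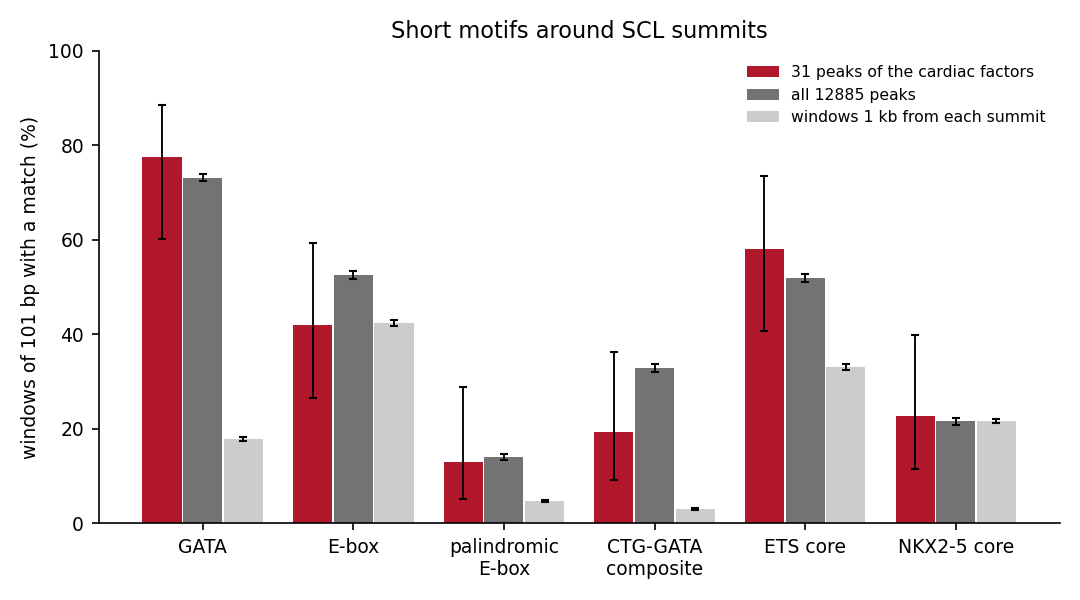
Share of windows of 50 bp on each side of a position with a match to each motif (%), with Wilson 95% confidence intervals, around the 31 summits of the cardiac genes, all 12885 summits, and in windows 1 kb away. The GATA motif reaches 77.4% in the members, 73.2% in all peaks and 17.8% away from the summits, and the composite 19.4%, 32.9% and 3.07%.

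Other gene lists set the 10 genes in context. Among 28 other cardiac regulators 20 had a peak and together they held 67, with a median fold of 10.2 (8.78 to 12.9) and a median strongest peak of 25.4. Their median stretch was 117.7 kb, and they held 1.16 peaks per 100 kb, where the 10 genes held 0.886. Tbx3 with 11 peaks and a strongest fold of 55.0, and Hey2, a Notch target in the ventricle, with 4 peaks and a strongest fold of 50.05 were among them. The single peak of Tcf21, a factor of the epicardium, had a fold of 172.8, above every peak of the 10 genes.

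Genes of the working heart muscle made up another list. Of 24 contractile and channel genes of the heart, 11 held 20 peaks, with a median fold of 9.76 (7.57 to 18.9), close to the 9.32 of the cardiac factors. They had a peak in 11 of 24 genes and a median strongest peak of 9.79, values that were 8 of 10 genes and 36.9 for the cardiac factors. The stretch nearest to a gene moves with these values, with a median of 49.5 kb for the contractile and channel genes and 264 kb for the cardiac factors, and its part in the difference was not tested. The list of 5 GATA and FOG factors of blood, to which the cofactor gene Zfpm1 with its 10 peaks belongs, had 27 peaks in 5 of 5 genes, a median fold of 18.1 (9.71 to 41.4) and a median strongest peak of 41.8, at a median stretch of 71.3 kb. The FOG gene Zfpm2, with 7 peaks, is in this list and also among the 28 cardiac regulators. Of 16 genes of the paraxial mesoderm, the source of the somites, 7 had a peak, with a median fold of 7.87 (6.24 to 24.2) a median strongest peak of 12.1 and a median stretch of 86.9 kb. The intervals of the median fold of the 5 lists overlap, and the difference between lists was not tested.

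**Figure D5:**
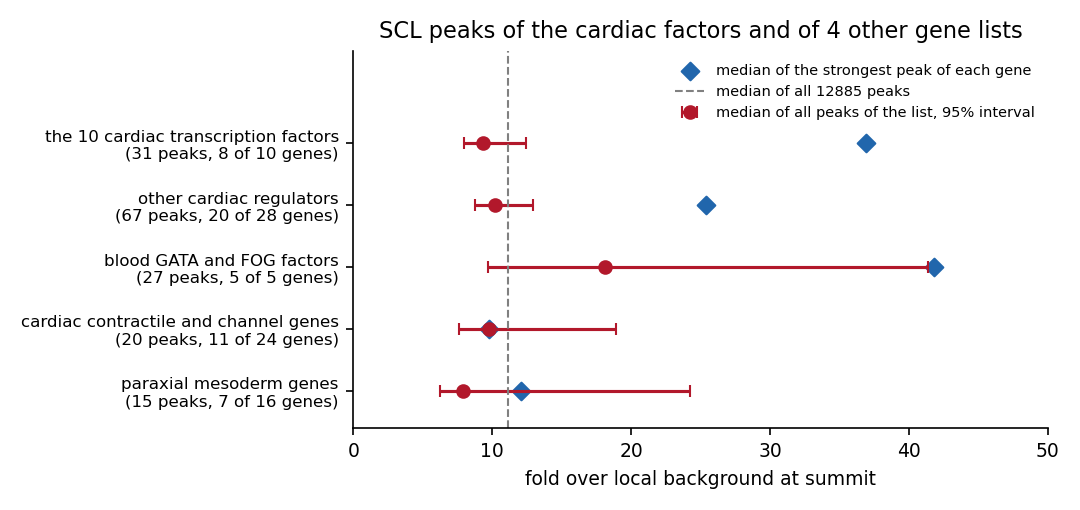
Median fold of all peaks of each gene list (circles, with the 95% confidence interval of the median) and median of the strongest peak of each gene with a peak (diamonds), with a dashed line at the median of all 12885 peaks. The circles of the 10 cardiac factors and of the 28 other cardiac regulators lie at 9.32 and 10.2, and their diamonds at 36.9 and 25.4.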

How the data were processed

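SCL ChIP-seq was performed on 2 libraries with 2 inputs. The authors aligned reads to mm9 with Bowtie (1.1.2 per the submitters' processing notes), removed duplicates, called peaks with MACS2 (2.0.10) on merged replicates and applied the irreproducible discovery rate. Depth per library is not given in the sources used here. The deposited list gives each peak's start, end and summit (other positions, used as given), its fold (a ratio), −log10 p and −log10 q, all values of the authors, and a deposited score, which was 10 times −log10 p and was not used.

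The fold of MACS2 is fragments plus 1 over background plus 1, and its p is a Poisson probability. Both were solved for the fragments and background at each summit. The result matched the deposited −log10 p within 0.001 in 99.9% of peaks. Intervals of the fold treat the background as fixed and cover counting error only. Intervals of shares and medians treat peaks as independent, although peaks of 1 gene are not replicates. Start sites came from GENCODE vM1 genes of the type protein_coding, sequence from NCBIM37 (mm9), with Python 3.11.15 and pysam 0.24.0. Ties went to the first gene name. Motifs were searched on both strands within 50 bp of the summit. Scripts were tested on simulated data.

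All 10 genes are named, with full values for the strongest peak of each gene, any peak within 1 kb of a start, and every peak with a fold of at least 20. Sequences were printed for strongest peaks, that of Gata6 excepted, and composite sites. The members, lists and alternatives were chosen with earlier results of these data known. No test was run, because a pooled list has no replicates. Positions are counted from 1.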

Additional observations from a re-analysis of the deposited data

How the results depend on the processing

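The number of peaks given to the 10 genes, 31, was 14 at a fold of at least 10, 10 at a −log10 q of at least 50 and 10 when a summit had to lie in the gene or within 10 kb of it. It was 23 with lincRNA and processed-transcript starts included. The number of genes with a peak ran from 6 to 9 under all alternatives. The median fold was 29.3, 32.4 and 36.9 with peaks of a fold of at least 10, of a −log10 q of at least 50, and with the strongest peak of each gene, settings that remove weak peaks by construction. Left out in turn after the data had been seen, the peaks of each gene moved the median fold only between 8.51 and 10.4. The share of member peaks with a GATA motif was 58.1% within 25 bp, 90.3% within 100 bp and 93.5% in whole peaks, where all peaks had 48.1%, 84.6% and 89.4%, and it was 92.9% and 90.0% in the stronger peaks by fold and by q, where all peaks had 79.1% and 79.8%. The share with an E-box was 19.4%, 61.3% and 77.4% in the same windows, where all peaks had 33.0%, 73.6% and 90.1%. In whole peaks the interval of the members was 60.2 to 88.6%. Member peaks had a median width of 363 bp and all peaks one of 397 bp. The share with the composite was 19.4%, 22.6% and 29.0% in the same windows, where all peaks had 19.0%, 41.2% and 47.5%. The gap between members and all peaks was thus absent within 25 bp and wider in the larger windows, and the cause was not tested. No replicate could be left out, since the processed list used here gives no value per library. No paired analysis was possible because peaks were called on the merged data. At 24 fragments, the fewest in the list, counting error alone gives a fold of 7.28 an interval of 4.77 to 10.7.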
